A study of Rattus norvegicus with 12 samples.

Results

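miR-223 and miR-142 are microRNAs of blood-forming cells, and both arms of each hairpin (rno-miR-223-3p, rno-miR-223-5p, rno-miR-142-3p and rno-miR-142-5p, written below without the rat prefix) were followed in rat serum after caffeine, dextromethorphan or both. The 4 mature microRNAs were taken by name, 4 of the 752 names in the table, and all 4 were among the 366 that passed the filter on low values. The animals were male rats of the Jcl:SD stock (Sprague-Dawley), aged 7 weeks, and each drug was given once by mouth. The control group received vehicle, sterile distilled water. The caffeine group received 180 mg/kg caffeine, a stimulant that blocks adenosine receptors, and the dextromethorphan group received 200 mg/kg dextromethorphan hydrobromide monohydrate, an antitussive that blocks NMDA receptors. The group with both drugs received 180 mg/kg caffeine and, 1 h later, 200 mg/kg dextromethorphan, and blood was collected under anaesthesia 1 h after dextromethorphan. The interval from dose to blood in the caffeine and control groups is not stated in the labels. The design names 5 rats per group, and 3 libraries per group were analysed here.

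A microRNA hairpin is cut into a duplex, and one arm, the guide, is kept by an Argonaute protein while the other, the passenger, is mostly degraded. The seed, bases 2 to 8 counted from the 5′ end, sets which messenger RNAs the guide binds. miR-223 is known from neutrophils, monocytes and platelets, where it restrains granulocyte production and inflammatory signalling. miR-142 is expressed in nearly all blood-forming lineages, and both of its arms are known to be loaded as guides. Serum holds no intact blood cells, so these microRNAs are read there as material released from cells. Fewer releasing cells and less RNA released per cell cannot be told apart in such samples.

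The 4 mature sequences, matched by name in RefSeq's rat assembly GRCr8, are shown with the seed in capitals because the arms of one hairpin carry different seeds:
miR-223-3p: uGUCAGUUugucaaauacccc
miR-223-5p: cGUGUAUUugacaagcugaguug
miR-142-3p: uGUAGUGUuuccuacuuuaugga
miR-142-5p: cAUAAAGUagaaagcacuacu
The 4 seeds differed from each other, and none was shared with any other of the 693 mature names in that table. The seed of miR-142-5p held 6 A or U bases of 7, that of miR-223-5p 5, and those of miR-223-3p and miR-142-3p 4 each. The sequence lengths, 21 or 23 nucleotides, were those in the deposited table.

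The hairpins are shown because the ratio between their arms carries one of the results below, with the 5p arm and then the 3p arm in capitals:
Mir223: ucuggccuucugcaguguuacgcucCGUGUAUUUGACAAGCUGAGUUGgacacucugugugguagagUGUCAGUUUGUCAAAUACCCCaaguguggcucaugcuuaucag
Mir142: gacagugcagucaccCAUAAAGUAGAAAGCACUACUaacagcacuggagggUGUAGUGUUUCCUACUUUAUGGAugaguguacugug
The longest run of exact complement between arms was 11 bases in Mir223 and 10 in Mir142. In the files' coordinates, with rn6 as the build in the submitters' notes, both loci lie on the plus strand. miR-223-5p is at chrX:65367837-65367859 and miR-223-3p at chrX:65367879-65367899, while miR-142-5p is at chr10:75050854-75050874 and miR-142-3p at chr10:75050890-75050912. Each of the 4 names had 1 row, so no copies were summed.

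Reads assigned to the listed microRNAs numbered 1304868 to 2625593 in control libraries, 1504963 to 1842796 after caffeine, 403913 to 895792 after dextromethorphan and 758290 to 1160717 after both. Libraries are named as in the columns. DEX2 and DEX3 were the shallowest, with 443564 and 403913 reads. A haemolysis index was taken as log2 of miR-451-5p, abundant in red cells, over miR-23a-3p. It was highest in the same libraries, -5.12 and -5.25 against -7.79 to -7.09 in control, so the main results on dextromethorphan are given with and without them. In the other treated libraries it was -7.09 to -5.66, with -5.66 in CAFDEX2 and -5.88 in CAFDEX3. The index thus largely follows treatment, so a model that holds both cannot separate them. FPKM divides reads by length and by the library total, and levels are given in kFPKM, with 1 kFPKM being 1000 FPKM. The values are relative to the reads of all listed microRNAs, so a gain of an abundant one lowers the rest.

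The 4 arms differed widely in level, and their order was the same in all 12 libraries. miR-223-3p ranked 4th of all names by mean FPKM and held 6.30% ± 0.453 of reads in control libraries (SD, n = 3). miR-142-5p ranked 27th, miR-142-3p 43rd and miR-223-5p 80th. Per length, miR-223-3p was 6.84-fold to 12.2-fold above miR-142-5p, the second in this order, depending on the library. The 3p arm was thus the abundant one of miR-223 and the 5p arm the abundant one of miR-142. Recovered reads ranged from 13465 (DEX3) to 174741 (ctrl3) for miR-223-3p, and from 204 (DEX2) to 1850 (ctrl3) for miR-223-5p. Those of miR-142-3p were at least 1421 and those of miR-142-5p at least 1970. Counting error alone is therefore 7.00% for miR-223-5p in DEX2, the thinnest value of the 4 arms, and counting error is the only error this figure covers. miR-451-5p, which enters the haemolysis index and a ratio below, rests on fewer reads than any of the 4 arms. It was at 1324 FPKM in ctrl5, where 1 read on 22 nucleotides equals 34.8 FPKM. Recovered reads were whole numbers in 11 libraries for miR-223-5p, in 5 for miR-142-3p, in 3 for miR-142-5p and in 2 for miR-223-3p.

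**Figure D1:**
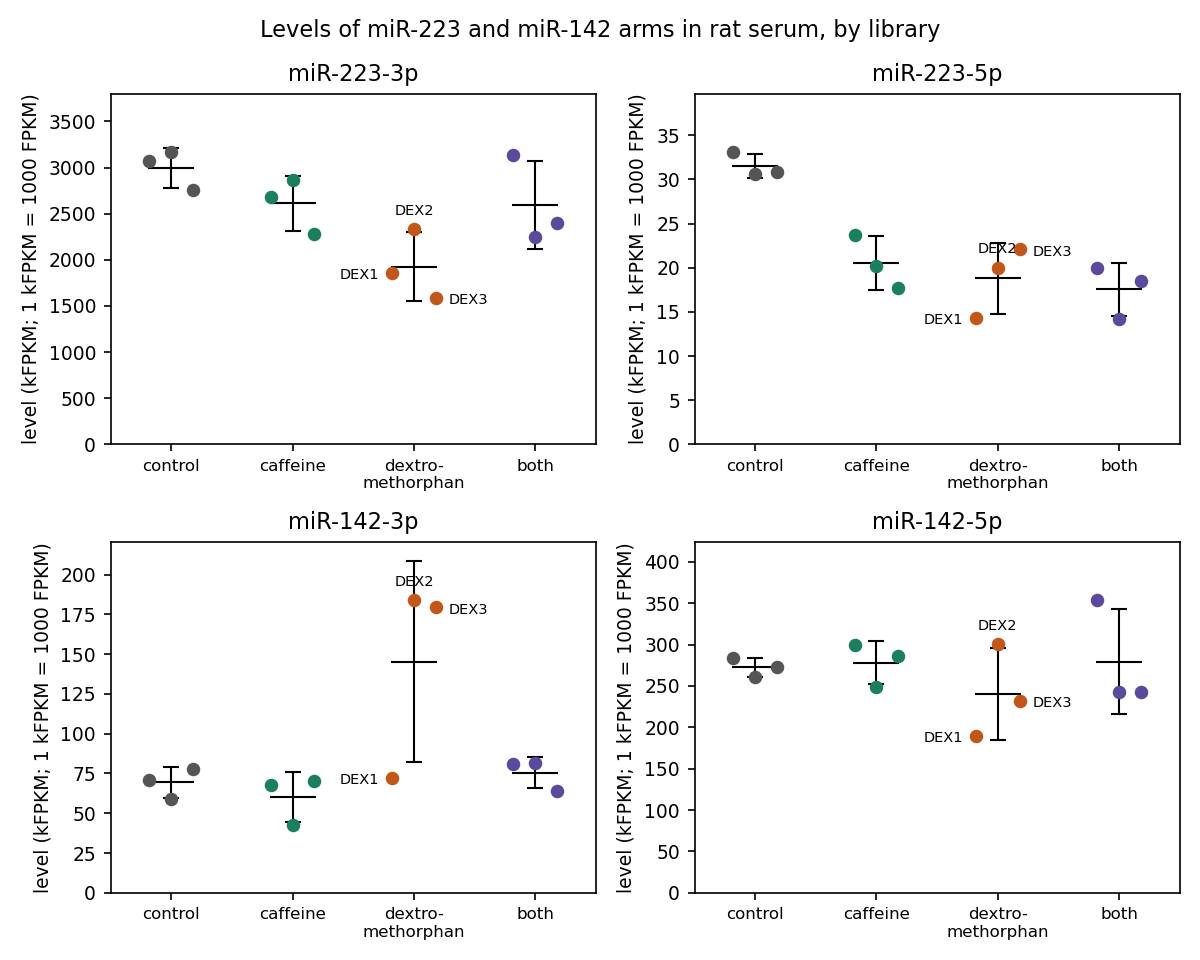
Level of each of the 4 arms in kFPKM (linear axis from 0) in the 12 libraries, grouped by treatment; points are libraries, the wide bar is the group mean and the whiskers are 1 SD (n = 3). miR-223-5p sits lower in all 9 treated libraries than in the 3 controls, and miR-142-3p is high in DEX2 and DEX3 alone.

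miR-223-5p, the minor arm of miR-223, was lower after each treatment and fell after both drugs together. Its level was 33.1, 30.6 and 30.9 kFPKM in ctrl1, ctrl3 and ctrl5, and 23.8, 20.1 and 17.7 kFPKM in CAF3, CAF4 and CAF5. It was 14.3, 20.0 and 22.1 kFPKM in DEX1, DEX2 and DEX3, and 20.0, 14.2 and 18.5 kFPKM in CAFDEX2, CAFDEX3 and CAFDEX6. All 9 treated libraries lay below all 3 controls. This separation held in each group, where 6.56%, 7.1% and 15.8% of all tested microRNAs lay wholly below control after caffeine, dextromethorphan and both. The lowest control was 1.29-fold above the highest treated library, while the treated groups overlapped each other. Among all tested microRNAs 9 of 366 (2.46%) had every treated library below every control, and 6.28% had every one above.

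After both drugs miR-223-5p was at 0.553-fold of control (95% interval 0.381 to 0.802, n = 3 per group; log2 fold change -0.86 ± 0.25, SE), with a limma adjusted p of 0.0441. It was the 1 of the 4 arms that passed, where 10.9% of all tested microRNAs passed in this comparison and 4.37% passed as lower. After dextromethorphan alone the log2 fold change was -0.77 ± 0.25 (limma adjusted p = 0.0562), and after caffeine alone -0.63 ± 0.25 (limma adjusted p = 0.15). Neither passed the threshold of 0.05, and 12.0% and 7.92% of all tested microRNAs did. The 3 comparisons share the control libraries and are not independent of each other. The pass after both drugs was narrow: leaving out 1 library gave an adjusted p of 0.0299 to 0.176 by limma, and the threshold was missed without any 1 of ctrl1, ctrl3, ctrl5, CAF3, CAF4, CAF5, CAFDEX2 or CAFDEX3. With the haemolysis index, which largely follows treatment, in the model the adjusted p was 0.509 (limma) at a log2 fold change of -1.08. After thinning all libraries to the shallowest the adjusted p was 0.0678 (limma), and the log2 fold change was -0.81. The dextromethorphan and caffeine libraries are not in this comparison, so leaving them out can change only the shared spread and the adjustment. Without DEX2 and DEX3 the log2 fold change was thus bound to stay at -0.86.

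miR-223-3p, the guide arm that myeloid cells and platelets hold in large amounts, was lowest after dextromethorphan. Control libraries had 3073, 3169 and 2757 kFPKM (ctrl1, ctrl3, ctrl5), and dextromethorphan libraries 1858, 2329 and 1587 kFPKM (DEX1, DEX2, DEX3). Caffeine libraries had 2684, 2868 and 2282 kFPKM (CAF3, CAF4, CAF5), and libraries with both drugs 3140, 2248 and 2399 kFPKM (CAFDEX2, CAFDEX3, CAFDEX6). The dextromethorphan libraries lay wholly below the controls, as did 7.1% of all tested microRNAs, whereas the other treated groups overlapped control.

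As a share of reads miR-223-3p held 4.04% ± 0.788 after dextromethorphan (SD, n = 3), 5.48% ± 0.629 after caffeine and 5.45% ± 1.0 after both. Its level after dextromethorphan was 0.635-fold of control (95% interval 0.460 to 0.876), with a log2 fold change of -0.66 ± 0.22 (SE) and a limma adjusted p of 0.0572, which did not pass. The log2 fold change was -0.20 ± 0.22 after caffeine and -0.22 ± 0.22 after both (limma adjusted p = 0.620 and 0.523), with 95% intervals of -0.67 to 0.26 and -0.69 to 0.24. With median-of-ratios scaling the difference after dextromethorphan was -1.07 for miR-223-3p and -1.18 for miR-223-5p on the log2 scale, and both passed (limma adjusted p = 0.0171 and 0.00955). The same scaling gave 0.54 for miR-142-3p (from 0.96) and -0.61 for miR-142-5p (from -0.20), and neither passed (limma adjusted p = 0.217 and 0.0988). It moved the median over the 366 microRNAs after dextromethorphan from 0.47 to 0.11 log2 units. Without DEX2 and DEX3 together the log2 fold changes were -0.69 for miR-223-3p and -1.14 for miR-223-5p, with DEX1 as the lone dextromethorphan library, assumed to vary like the other groups.

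The arms of miR-142, a microRNA of nearly all blood-forming cells, stood apart from each other after dextromethorphan. miR-142-3p was at 72.4 kFPKM in DEX1 but at 183.8 and 179.5 kFPKM in DEX2 and DEX3. In controls it was at 71.2, 58.9 and 78.0 kFPKM (ctrl1, ctrl3, ctrl5), after caffeine at 67.6, 42.5 and 70.6 (CAF3, CAF4, CAF5) and after both drugs at 81.0, 81.5 and 64.1 (CAFDEX2, CAFDEX3, CAFDEX6). DEX2 and DEX3 averaged 2.64 times the mean of the other 10 libraries, whose highest value was 81.5 kFPKM, while DEX1 lay within the control range.

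Against control miR-142-3p was 1.94-fold higher after dextromethorphan (95% interval 1.19 to 3.16; log2 fold change 0.96 ± 0.33, SE, n = 3 per group), with a limma adjusted p of 0.0608 that did not pass. The difference rests on DEX2 and DEX3: without both the log2 fold change was 0.07, and without DEX1 it was 1.40 with a limma adjusted p of 0.00275. With the haemolysis index in the model it was -0.18, a value that cannot separate the index from treatment. After caffeine and after both drugs the log2 fold changes were -0.23 ± 0.33 and 0.12 ± 0.33 (limma adjusted p = 0.719 and 0.833).

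miR-142-5p, the abundant arm, showed no difference that passed. It was at 283.8, 260.6 and 272.6 kFPKM in control (ctrl1, ctrl3, ctrl5) and at 189.9, 300.1 and 232.3 kFPKM after dextromethorphan (DEX1, DEX2, DEX3). After caffeine it was at 299.7, 248.6 and 286.5 kFPKM (CAF3, CAF4, CAF5), and after both drugs at 353.3, 242.6 and 242.5 kFPKM (CAFDEX2, CAFDEX3, CAFDEX6). Every treated group overlapped control, with a spread of 23.1% of the mean after dextromethorphan and 22.9% after both against 4.25% in control. The log2 fold change was 0.03 ± 0.23 after caffeine, -0.20 ± 0.23 after dextromethorphan and 0.01 ± 0.23 after both (SE; limma adjusted p = 0.951, 0.550 and 0.984). As ratios to control their 95% intervals were 0.721 to 1.44, 0.615 to 1.23 and 0.715 to 1.43, so changes within these ranges remain compatible with the data. Without DEX2 and DEX3 the log2 fold change after dextromethorphan was -0.52, with DEX1 as the lone dextromethorphan library.

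**Figure D2:**
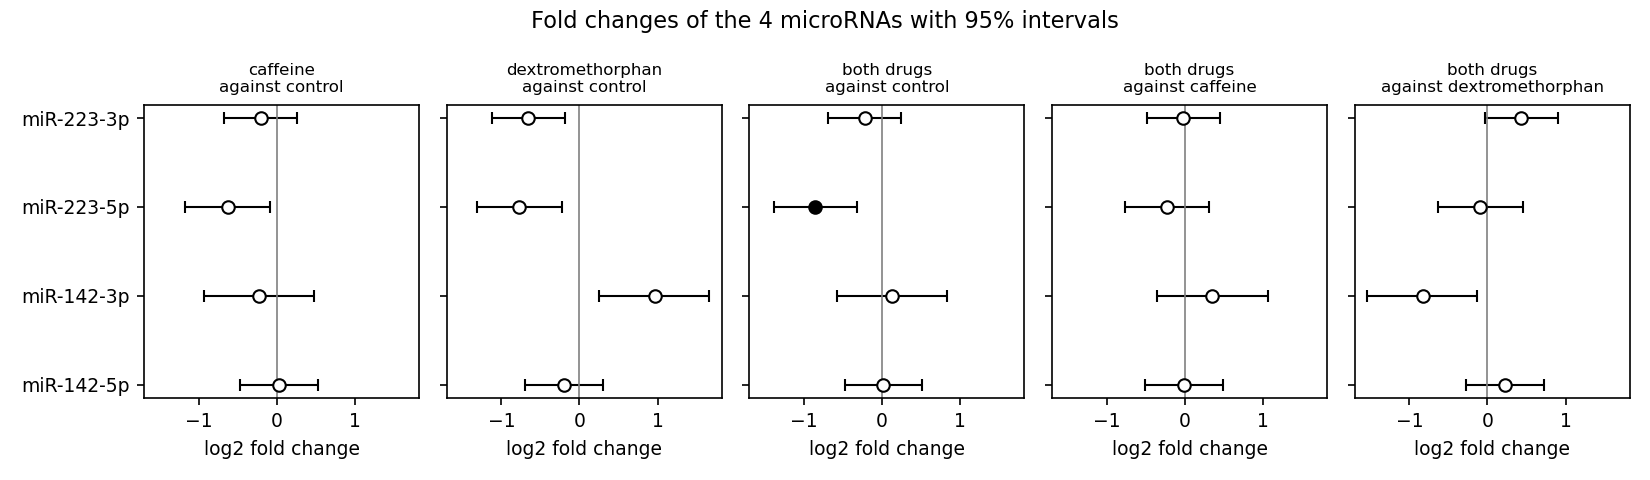
Log2 fold change of each arm on the log2(FPKM + 40) scale (x axis) with its 95% interval from limma, one panel per comparison; filled points have an adjusted p under 0.05 and open points do not. The 1 filled point is miR-223-5p after both drugs against control, at -0.86.

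What each drug added to the other was compared next. Against caffeine alone none of the 4 arms passed after both drugs, and neither did any of all 366 microRNAs by limma (0.0%), of which 22 had an unadjusted p under 0.05, and none of these 22 was one of the 4 arms. The log2 fold changes there were -0.02 ± 0.22 for miR-223-3p, -0.23 ± 0.25 for miR-223-5p, 0.35 ± 0.33 for miR-142-3p and -0.01 ± 0.23 for miR-142-5p (SE, n = 3 per group). Against dextromethorphan alone, where 3.55% of all tested microRNAs passed, none of the 4 arms did. miR-142-3p had a log2 fold change of -0.83 ± 0.33 (limma adjusted p = 0.222), miR-223-3p of 0.43 ± 0.22 (0.343), miR-142-5p of 0.22 ± 0.23 and miR-223-5p of -0.09 ± 0.25. Without DEX2 and DEX3 the value for miR-142-3p was 0.05, and without DEX1 it was -1.27 with a limma adjusted p of 0.00899.

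The interaction asks whether the log2 change with both drugs departs from what the separate changes add up to. It passed for none of the 4 arms and for 4.64% of all tested microRNAs. It was 0.64 ± 0.31 for miR-223-3p (limma adjusted p = 0.242), 0.54 ± 0.36 for miR-223-5p (0.429), -0.60 ± 0.47 for miR-142-3p (0.525) and 0.19 ± 0.33 for miR-142-5p (0.827). The median over all tested microRNAs was -0.39. With median-of-ratios scaling that median moved to 0.10, and the members' values were 1.14 for miR-223-3p, 1.04 for miR-223-5p, -0.11 for miR-142-3p and 0.69 for miR-142-5p, with none passing.

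Ratios within a library do not depend on the total to which FPKM values are scaled. The ratio of miR-142-3p to miR-142-5p was 0.251, 0.226 and 0.286 in control (ctrl1, ctrl3, ctrl5) and 0.381, 0.612 and 0.773 after dextromethorphan (DEX1, DEX2, DEX3). It was 0.226, 0.171 and 0.246 after caffeine (CAF3, CAF4, CAF5) and 0.229, 0.336 and 0.264 after both (CAFDEX2, CAFDEX3, CAFDEX6). All 3 dextromethorphan libraries, DEX1 included, lay above every other library, but not through the same arm. In DEX1 miR-142-5p was at 189.9 kFPKM, the lowest of the 12 libraries, and miR-142-3p at 72.4 kFPKM lay within the control range. In DEX2 and DEX3 miR-142-3p was high, at 183.8 and 179.5 kFPKM, with miR-142-5p at 300.1 and 232.3 kFPKM. Of the 102 hairpins with both arms tested, 9.8% had all 3 dextromethorphan libraries above all controls, and miR-142 was the 1 hairpin (0.98%) with all 3 above the other 9 libraries.

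As log2 values the miR-142 arm ratio averaged -0.82 ± 0.52 with dextromethorphan (SD, n = 3), against -1.98 ± 0.17 in control, -2.24 ± 0.28 with caffeine and -1.87 ± 0.28 with both drugs. The 4 groups differed (exact permutation p = 0.00455 over all 369600 assignments of libraries, adjusted 0.00909 over 6 ratios). Leaving out any 1 library gave an adjusted p of 0.0130 to 0.0425 in the exact permutation test. Without DEX2 and DEX3 together the test no longer passed (exact permutation p = 0.0896, adjusted 0.134), and DEX1 alone was 0.59 above the control mean. Dextromethorphan against control gave an exact permutation p of 0.1, the smallest value that 3 against 3 libraries allow. After thinning to equal depth the difference from control was 1.13, against 1.16 without thinning. Random thinning leaves the expected ratio of well-covered arms unchanged, so this value cannot tell whether depth plays a part.

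The same ratio was then set beside that of every hairpin with both arms tested, a comparison added after the values were seen. Among 102 hairpins the dextromethorphan difference of miR-142 was the 8th highest, 1.16 ± 0.30 log2 units (SE), against a median of -0.03. With limma over the 102 hairpins it had the second smallest p, 0.00270, but an adjusted p of 0.138, and no hairpin passed (0.0%; 13 had an unadjusted p under 0.05). It was 0.59 without DEX2 and DEX3 together, 0.56 with the haemolysis index in the model and 1.44 without DEX1, and passed with a pseudocount of 160 FPKM and without DEX1 (limma adjusted p = 0.0392 and 0.0125). Both drugs against dextromethorphan gave -1.05 ± 0.30 for miR-142 (limma adjusted p = 0.221). It was -0.48 without DEX2 and DEX3 together, and -1.33 without DEX1, where it passed (limma adjusted p = 0.0297).

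**Figure D3:**
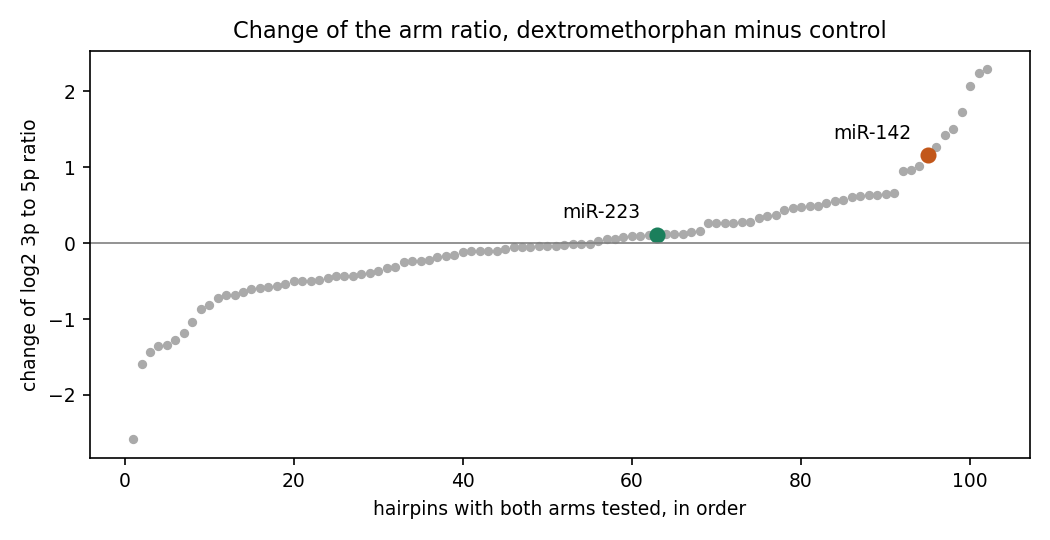
Difference of the log2 ratio of the 3p to the 5p arm between dextromethorphan and control (y axis) for the 102 hairpins with both arms tested, in ascending order (x axis, rank). miR-142 is the 8th highest at 1.16, and miR-223 lies near the middle at 0.11.

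After dextromethorphan the arms of miR-223 moved less against each other than those of miR-142 (0.11 against 1.16 log2 units from control). They moved more after caffeine (0.42 against -0.26) and after both drugs (0.63 against 0.11). The ratio of miR-223-3p to miR-223-5p was 92.7, 103.3 and 89.2 in control (ctrl1, ctrl3, ctrl5), 112.8, 142.1 and 128.8 after caffeine (CAF3, CAF4, CAF5) and 156.8, 157.7 and 129.2 after both (CAFDEX2, CAFDEX3, CAFDEX6). After dextromethorphan it was 129.4, 116.2 and 71.8 (DEX1, DEX2, DEX3). The groups with caffeine lay above all controls, as did 16.7% of the 102 hairpins after caffeine and 10.8% after both, while dextromethorphan alone overlapped control through DEX3, which was the lowest of the 12 libraries. The 4-group test did not pass (exact permutation p = 0.0593, adjusted 0.0604), and it passed without DEX3 (adjusted p = 0.0134, exact permutation) and without DEX1 (adjusted p = 0.0357, exact permutation). It also passed without DEX2 and DEX3 together (adjusted p = 0.0279, exact permutation), with DEX1 0.45 above the control mean. Over the 102 hairpins the difference from control was 0.63 ± 0.32 log2 units after both drugs (limma adjusted p = 0.436) and 0.42 ± 0.32 after caffeine (0.676).

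miR-223-3p was also set against microRNAs of other blood cells. Against miR-142-3p, its log2 ratio was lowest with dextromethorphan, 3.83 ± 0.78 (SD, n = 3), against 5.44 ± 0.30 in control, 5.47 ± 0.55 with caffeine and 5.10 ± 0.27 with both drugs (exact permutation p = 0.0121, adjusted 0.0182). This test missed the threshold without ctrl3, with an adjusted p of 0.0505 in the exact permutation test. It rests on DEX2 and DEX3: without both the adjusted p was 0.353 (exact permutation), and the difference of DEX1 from control was -0.76 in place of -1.61. Against miR-451-5p, which matures in red-cell precursors, the log2 ratio dropped from a control mean of 10.59 ± 0.34 to 9.73 ± 0.37 with caffeine, 9.26 ± 0.36 with both drugs and 8.15 ± 0.50 with dextromethorphan. That was the smallest p of the 6 ratios (exact permutation p = 0.00013, adjusted 0.000779). No treated library reached the control range. miR-451-5p alone also separated, at 2599 FPKM or more in treated libraries against 1324 to 2415 FPKM in control. Among all tested microRNAs 6.28% had every treated library above every control. The log2 fold changes of miR-451-5p after caffeine, dextromethorphan and both were 0.66, 1.79 and 1.12. Those of miR-223-3p were -0.20, -0.66 and -0.22, so the drop of the ratio lay more in miR-451-5p. The test still passed without DEX2 and DEX3 (adjusted p = 0.0279, exact permutation). At the lowest ratio, in DEX3, miR-223-3p was 192.3-fold above miR-451-5p.

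Against miR-150-5p, an abundant lymphocyte microRNA, the linear ratio of miR-223-3p had a geometric mean of 6.70 in control. It was 2.16 with caffeine, 2.29 with dextromethorphan and 1.25 with the combination (4 groups, exact permutation p = 0.00318, adjusted 0.00909). The test also passed without DEX2 and DEX3 (adjusted p = 0.0279, exact permutation). Every treated library was below every control, and in CAFDEX3 miR-150-5p was the more abundant of the pair at a ratio of 0.890. Against control, miR-150-5p itself had log2 fold changes of 1.43, 0.89 and 2.20 after caffeine, dextromethorphan and both drugs. Those of miR-223-3p were -0.20, -0.66 and -0.22, so the drop of the ratio lay more in miR-150-5p. Among all tested microRNAs 6.28% had every treated library above every control. Against miR-126a-3p, known from endothelium and platelets, the log2 ratio was 5.54 ± 0.82 in control, 4.55 ± 0.55 with caffeine, 3.48 ± 0.19 with dextromethorphan and 3.72 ± 1.34 with both drugs (SD, n = 3). The 4-group test did not pass (exact permutation p = 0.0604, adjusted 0.0604), and it passed without ctrl5, CAFDEX3 or CAFDEX6 (adjusted p = 0.0420, 0.0318 and 0.0384, exact permutation). The adjusted p was 0.262 without DEX2 and DEX3 (exact permutation).

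**Figure D4:**
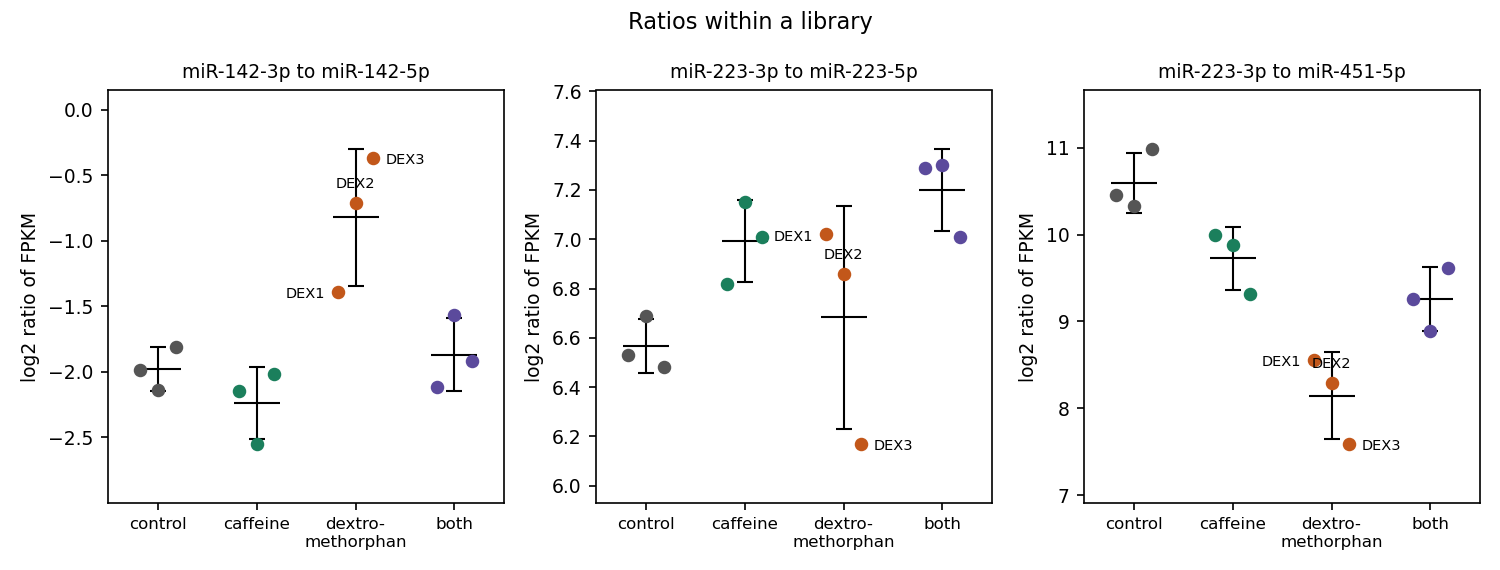
Log2 ratio of FPKM within each library for 3 pairs (separate linear axes that do not start at 0); points are libraries, the wide bar is the group mean and the whiskers are 1 SD (n = 3). The miR-142 arm ratio is highest in the 3 dextromethorphan libraries, and miR-223-3p is lowest against miR-451-5p in DEX3, at 7.59.

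Other microRNAs of blood and of liver moved beside these arms, and their part in the results was not tested. Of 8 tested microRNAs known from myeloid cells other than miR-223 and miR-142, none passed after caffeine or dextromethorphan. After both drugs miR-147 alone rose (log2 fold change 1.86 ± 0.51, SE, limma adjusted p = 0.0357), from a low control mean of 0.236 kFPKM. The median log2 fold change of these 8 was 0.08, 0.09 and -0.17 against control for caffeine, dextromethorphan and the combination. The medians over all 366 were 0.19, 0.47 and 0.24. The summed level of the 8 was 758.8 to 1028 kFPKM in control and 790.7 to 1016 after dextromethorphan.

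Among all tested microRNAs 6.83% rose and 1.09% fell after caffeine, 11.5% and 0.546% after dextromethorphan, and 6.56% and 4.37% after both. Of 11 lymphocyte and activated-leukocyte microRNAs 3 rose and 1 fell after both drugs, 2 rose and 1 fell after caffeine, and 1, miR-181a-5p, rose after dextromethorphan but did not pass without DEX2 and DEX3 (0.92, limma adjusted p = 0.207). miR-150-5p rose by 2.20 ± 0.31 log2 units after both drugs (limma adjusted p = 0.00118), in the same libraries in which miR-223-5p fell. The median log2 fold change of the list was 0.34, 0.59 and 0.78 for caffeine, dextromethorphan and both, against 0.19, 0.47 and 0.24 over all 366. The summed level of this list was 1035 to 1403 kFPKM in control and 2792 to 4166 after both.

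Of 9 red-cell microRNAs 3 rose after dextromethorphan, all of them arms of miR-144 or miR-451. They were miR-451-5p with 1.79 ± 0.33 log2 units (SE, limma adjusted p = 0.00227), miR-451-3p with 2.15 ± 0.49 and miR-144-5p with 1.64 ± 0.46. miR-451-3p was low, at a mean of 0.363 kFPKM over the 12 libraries. None of the 3 passed without DEX2 and DEX3, where miR-451-5p was at 1.34 ± 0.45 (limma adjusted p = 0.0927). After both drugs miR-451-5p rose and miR-92a-3p fell (-1.36 ± 0.29), and after caffeine miR-92a-3p fell (-1.02 ± 0.29). After dextromethorphan miR-92a-3p was at -0.82 ± 0.29 and did not pass. The level of miR-451-5p was 7378 and 8215 FPKM in DEX2 and DEX3, the same libraries in which miR-142-3p was high, against 4871 FPKM in DEX1. In CAFDEX2 and CAFDEX3 it was 5072 and 4706 FPKM, with miR-142-3p at 81.0 and 81.5 kFPKM. The summed level of the red-cell list, most of it miR-16-5p, was 5639 to 6739 kFPKM in control, 5153 to 5506 after caffeine, 5855 to 6959 after dextromethorphan and 5546 to 7018 after both. Of these red-cell sums only those after caffeine lay wholly below control.

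The red-cell medians, 0.15, 0.46 and 0.27, lay close to those of all 366. Of 13 platelet microRNAs 2 rose after dextromethorphan, miR-199a-3p (log2 fold change 1.17 ± 0.33, SE, limma adjusted p = 0.0352) and miR-222-3p. After caffeine miR-199a-3p rose, and after both drugs miR-126a-3p rose. The summed level of the platelet list, most of it miR-191a-5p, was 15655 to 17836 kFPKM in control, 12670 to 16463 after caffeine, 10156 to 12930 after dextromethorphan and 9833 to 14303 after both. The sums after dextromethorphan and after both lay wholly below control, whereas miR-223-3p did so after dextromethorphan and overlapped control after both. miR-191a-5p itself had a log2 fold change of -0.67 ± 0.23 after dextromethorphan and -0.53 ± 0.23 after both (limma adjusted p = 0.0597 and 0.137). miR-199a-3p still passed after dextromethorphan without DEX2 and DEX3 (1.74), and miR-222-3p did not (0.50). The platelet medians were 0.11, 0.55 and 0.30. Of 5 hepatocyte microRNAs 3 rose after caffeine, 4 after dextromethorphan and 2 after both. Without DEX2 and DEX3, with DEX1 as the lone dextromethorphan library, all 5 were higher than control, at log2 fold changes of 2.50 to 3.35. Their median was 2.60 there, where the median over all tested microRNAs was 0.30. Their summed level was 3140 to 7212 kFPKM after dextromethorphan and 856.6 to 2332 in control.

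The microRNAs whose profile over the 12 libraries was most like that of miR-223-3p were let-7d-3p (Pearson r = 0.79, Spearman rho = 0.75), miR-191a-5p (0.78 and 0.75) and miR-186-3p (0.77 and 0.70), the last at a mean of 0.0825 kFPKM and with no read in some libraries. For miR-223-5p they were miR-17-5p (Pearson r = 0.93, Spearman rho = 0.89), miR-383-5p (0.91 and 0.90) and miR-18a-5p (0.90 and 0.87). For miR-142-5p they were miR-130b-3p (0.83 and 0.73), miR-146b-3p (0.82 and 0.82) and miR-301b-3p (0.74 and 0.78), the last pair with few reads. For miR-142-3p they were miR-340-5p (Pearson r = 0.95, Spearman rho = 0.87), miR-200c-3p and miR-20b-5p (both 0.95 and 0.78). miR-142-3p was high in DEX2 and DEX3 alone, so these libraries weigh heavily in its Pearson values, which were not computed without them. All these correlations are descriptions over libraries that share group, depth and total, chosen as the highest among 362 candidates. Between the members, r over the 12 libraries was 0.56 for the arms of miR-223 (rho = 0.58) and 0.08 for the arms of miR-142 (rho = 0.12).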

How the data were processed

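Small RNA from 200 uL of rat serum was sequenced in 12 libraries (QIAseq miRNA kit, per the labels' protocols). The authors deposited FPKM per mature microRNA, 1 column per library. The submitters' processing notes name build rn6, STAR 2.7.10a, DESeq2 1.20.0, Subread 2.0.1, featureCounts and cutadapt 3.7; their roles, and the use of molecular indices, are not given in the sources used here. Column names gave the group but not the sample. FPKM times length summed to 1 constant per library, and steps of 0.01 read (tolerance 0.0001 of a step) explained 100% of values above 0, which gave library totals and reads; between 65.4% and 75.0% of these were whole.

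Copies of 69 names were summed (836 rows, 752 names). A name was tested if its mean reached 80 FPKM and 3 or more libraries were above 0, which left 366. limma 3.58.1 in R 4.3.3 was fitted to log2(FPKM + 40) over 4 groups with a mean-variance trend (8 residual and 7.58 prior degrees of freedom), with Benjamini-Hochberg adjustment over the 366 names, two-sided, threshold 0.05. Fold changes are on this scale, which understates changes of low microRNAs. The pseudocount of 40 was set near the low end of the values above 0. The fit was tested on simulated data. Ratios were tested by exact permutation of the between-group sum of squares, and 3 against 3 libraries two-sided. No label says that the libraries came from different animals, and p-values then cover only library-to-library spread, which may be technical. Members, lists and tests were chosen with earlier results of these data known. The 4 arms were always named, from the lists up to 3 passing members by level, and for likeness the 3 highest Pearson correlations. Alternatives were 2 other pseudocounts (10 and 160 FPKM), no filter, 2 scalings, voom on recovered reads, only the groups compared, the haemolysis index, thinning and left-out libraries. Python 3.11.15, numpy 2.4.6, pandas 2.3.3, scipy 1.17.1 and matplotlib 3.10.9 were used.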

Additional observations from a re-analysis of the deposited data

How the results depend on the processing

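Of 524 values of the 4 arms under other settings 472 kept direction and side of the threshold, 11 lost and 8 gained a pass and 33 changed sign; of 98 for the ratios, 88, 4, 5 and 1 did. The cause of each change below was not tested. All values are log2 differences. No paired analysis was possible because the column numbers are not those of the sample titles, so the label numbers cannot be carried to the libraries.

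After both drugs against control miR-223-5p lost its pass without the low-value filter (-0.86), with thinning (-0.81) and with the haemolysis index (-1.08), and was -0.96 to -0.71 over left-out libraries. After dextromethorphan against control miR-223-3p and miR-223-5p gained a pass with median-of-ratios scaling (-1.07 and -1.18) and without miR-191a-5p (-0.93 and -1.04). Over left-out libraries they were -0.80 to -0.53 and -0.90 to -0.58, each passing without CAFDEX3. miR-142-3p was 0.73 to 1.40 there, passing without DEX1, and -0.18 with the haemolysis index.

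Sign changes of values that passed in neither setting were as follows. With median-of-ratios scaling, miR-142-5p was -0.22 after caffeine and -0.15 after both against control, and 0.07 for both against caffeine; miR-142-3p was -0.04 after both against control; miR-223-3p was 0.07 for both against caffeine, and miR-223-5p 0.16 for both against dextromethorphan. Without miR-191a-5p, miR-142-5p was -0.09 after caffeine and -0.21 after both, and miR-142-3p -0.10 after both. With the haemolysis index, miR-142-5p was -0.20 after caffeine and -0.42 after both; miR-142-3p was -0.79 after both, -0.09 for both against caffeine and 0.09 in the interaction. Without DEX2 and DEX3, both against dextromethorphan gave 0.28 for miR-223-5p and 0.05 for miR-142-3p, and the interaction of miR-142-3p was 0.28. Over left-out libraries, values that changed sign or gained or lost a pass ranged as follows: miR-142-3p -0.36 to 0.0 and miR-142-5p -0.03 to 0.11 after caffeine, and miR-142-5p -0.17 to 0.11 after both, against control; for both against caffeine, miR-223-3p -0.16 to 0.08 and miR-142-5p -0.19 to 0.08; for both against dextromethorphan, miR-223-5p -0.27 to 0.06 and miR-142-3p -1.27 to -0.60.

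For ratios, as dextromethorphan minus control, the ranges were -0.05 to 0.37 for the miR-223 arms (permutation and limma), -2.04 to -1.27 for miR-223-3p to miR-142-3p and -2.53 to -1.77 for miR-223-3p to miR-126a-3p. Without DEX2 and DEX3, a setting added after seeing the values, the miR-142 arm ratio (0.59) and miR-223-3p to miR-142-3p (-0.76) lost their pass in the permutation test and the miR-223 arm ratio (0.45) gained one. The miR-142 arm ratio, 1.16, did not pass with limma over 102 hairpins. By limma, the miR-142 arm ratio after both was -0.37 with the haemolysis index and -0.04 to 0.23 over left-out libraries, and the interaction of the miR-223 arm ratio was -0.24 without DEX2 and DEX3 and -0.16 to 0.26 over left-out libraries. Depth limits miR-223-5p most, and 3 libraries per group limit every test.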
